A study of Mus musculus with 15 samples.

Results

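The 10 genes Alox5, Alox5ap, Alox12, Alox15, Ptgs1, Ptgs2, Ptgds, Ltb4r1, Fpr2 and Cmklr1 encode enzymes that make oxygenated lipid mediators and receptors that bind them. They were chosen by symbol, from the pathways to which protectin DX belongs, out of 55450 genes in the liver count table, and 9 of the 10 passed the filter on low counts that 15808 genes passed. The study made 1 liver mRNA library from each of 15 C57BL/6 mice, all female, in 3 groups of 5. Mice A1 to A5, the Adult group, entered the study at 6 months of age and mice O1 to O5, the Old group, at 22 months, and all of these were gavaged with the corn oil vehicle. Mice P1 to P5, the PDX group, also entered at 22 months and were gavaged daily with protectin DX in corn oil, 30 ng per g of body weight. The gavage lasted 9 weeks by the treatment protocol and 8 weeks by the description of the series. The groups address 2 questions for these genes: whether their liver expression differed between vehicle-treated mice of the 2 ages, and whether it differed between old mice with and without protectin DX. Every mouse is a separate animal, and p-values measure the spread between animals.

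Lipoxygenases and cyclooxygenases add oxygen to polyunsaturated fatty acids released from membranes, which gives leukotrienes, lipoxins, prostaglandins and thromboxanes from arachidonic acid and resolvins and protectins from omega-3 fatty acids. Protectin DX is an oxygenated product of docosahexaenoic acid that lipoxygenases can form. In liver these enzymes and receptors are best known from resident macrophages (Kupffer cells) and from recruited leukocytes and platelets, while hepatocytes mainly take up and break down the products.

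Read pairs counted on genes ranged from 22.4 M to 36.1 M in the Adult mice (median 29.6 M), from 25.5 M to 29.1 M in the Old mice (median 26.6 M) and from 26.1 M to 30.1 M in the PDX mice (median 28.7 M). Levels are given as CPM, the counts per 1000000 of the library size after TMM scaling, and comparisons between genes as RPKM, which is CPM per kilobase of exon. All 6 hepatocyte markers (Alb, Ttr, Apoa1, Serpina1c, Cyp2e1 and Cps1) were detected in these livers, with a summed CPM of 47039 to 201875. The Old mice O2 and O5 stood apart from the other Old mice. O5 had the lowest sum of hepatocyte markers of all mice (47039 CPM) and O2 the next lowest (75613 CPM). In O2 the sums for Kupffer cell, neutrophil and platelet markers were the highest of the 15 mice, at 2633, 237 and 132 CPM, and in O5 the Kupffer cell sum was the lowest, at 247 CPM. Results that rest on these mice are given with and without them.

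By genomic position (GRCm38), all 10 genes are protein-coding, and values refer to the reads on their exons. The lipoxygenase genes are Alox5 at chr6:116410077-116461178 (minus strand), Alox12 at chr11:70241457-70255353 (minus strand) and Alox15 at chr11:70344152-70352031 (minus strand), with Alox5ap at chr5:149264767-149288153 (plus strand). The cyclooxygenase genes are Ptgs1 at chr2:36230426-36252272 (plus strand) and Ptgs2 at chr1:150100031-150108227 (plus strand), and Ptgds lies at chr2:25466709-25470046 (minus strand). The receptor genes are Ltb4r1 at chr14:55765962-55768494 (plus strand), Fpr2 at chr17:17887824-17893952 (plus strand) and Cmklr1 at chr5:113612354-113650426 (minus strand). Fpr2 shares exon sequence with Fpr3 on the same strand, and Fpr3 had at most 1 count in any mouse. The genes antisense to exons of Alox5ap and Ptgs1 also had at most 1 count, and counting was by strand.

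RefSeq promoter windows of GRCm38.p6, from 250 bases before to 50 bases after a start site, were found for 8 of the 10 genes, all but Alox5ap and Alox15. The letters GAGGAA, the core recognised by PU.1, a transcription factor of myeloid and B cells, occurred on either strand in 7 of these 8 windows, all but that of Ptgds. They occurred in 28.3% of all 32817 windows. Of 6 other motifs searched on both strands, the GC box GGGCGG was in 4 of the 8 windows (35.6% of all), the CCAAT box CCAAT in 2 (37.4%), the E-box CACGTG in 2 (7.15%), the TATA box TATAAA in 1 (13.6%), the CRE core TGACG in 1 (20.8%) and the C/EBP letters TTGNNNCAA in 0 (5.82%). These letter matches describe the sequence and are not evidence of binding. The windows of 4 genes whose Adult and PDX levels did not overlap are printed as examples, with the core in capitals. Those of Alox5, Ptgs1 and Cmklr1 (higher in PDX) hold it, and that of Ptgds (lower) does not. The windows of Alox12 and Fpr2, also higher in PDX without overlap, hold it too. So do those of Ltb4r1 and Ptgs2, whose Adult and PDX mice overlapped. A link between the core and the direction of change was not tested. Each printed window is written 5′ to 3′ on the strand of the gene, and the starts used for Ptgds and Cmklr1 lie inside the gene span given above. The windows are chr6:116461129-116461428 (minus strand) for Alox5, chr2:36230176-36230475 (plus strand) for Ptgs1, chr5:113643554-113643853 (minus strand) for Cmklr1 and chr2:25469700-25469999 (minus strand) for Ptgds, with the core beginning at base -136, -24 and -98 from the start site in the first 3.
Alox5: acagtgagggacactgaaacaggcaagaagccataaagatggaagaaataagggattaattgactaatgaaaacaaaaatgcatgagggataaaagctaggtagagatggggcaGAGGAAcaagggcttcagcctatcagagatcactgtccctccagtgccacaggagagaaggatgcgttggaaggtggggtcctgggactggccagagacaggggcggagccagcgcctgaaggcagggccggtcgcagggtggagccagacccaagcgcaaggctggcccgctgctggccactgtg
Ptgs1: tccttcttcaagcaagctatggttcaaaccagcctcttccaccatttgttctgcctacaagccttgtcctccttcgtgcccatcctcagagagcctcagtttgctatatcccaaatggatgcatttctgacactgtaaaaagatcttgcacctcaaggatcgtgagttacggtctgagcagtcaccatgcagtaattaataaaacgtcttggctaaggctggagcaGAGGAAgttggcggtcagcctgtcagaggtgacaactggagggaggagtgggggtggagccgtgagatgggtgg
Cmklr1: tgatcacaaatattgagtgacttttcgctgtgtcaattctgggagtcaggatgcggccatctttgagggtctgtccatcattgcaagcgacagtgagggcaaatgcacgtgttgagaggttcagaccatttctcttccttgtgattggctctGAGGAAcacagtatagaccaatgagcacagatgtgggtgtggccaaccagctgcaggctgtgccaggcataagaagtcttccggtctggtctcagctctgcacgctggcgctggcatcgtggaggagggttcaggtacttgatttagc
Ptgds: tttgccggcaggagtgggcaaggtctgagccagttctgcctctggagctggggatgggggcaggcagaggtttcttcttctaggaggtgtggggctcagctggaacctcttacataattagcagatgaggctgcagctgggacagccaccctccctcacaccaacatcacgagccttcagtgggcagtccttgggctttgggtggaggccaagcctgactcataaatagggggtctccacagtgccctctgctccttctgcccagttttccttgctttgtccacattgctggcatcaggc

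Per kilobase of exon, Ptgds and Ptgs1 had the highest levels of the 10 genes in the Adult liver. The mean RPKM in the Adult group was 5.23 ± 2.02 for Ptgds and 4.91 ± 0.577 for Ptgs1 (SD, n = 5), which did not differ beyond their spread. Alox5ap followed at 2.05 ± 0.449, then Cmklr1 at 1.30 ± 0.367, Fpr2 at 0.891 ± 0.333 and Ltb4r1 at 0.618 ± 0.257 RPKM (SD, n = 5 each). Alox12 (0.304 ± 0.110 RPKM), Alox15 (0.110 ± 0.0371 RPKM) and Alox5 (0.0446 ± 0.0147 RPKM) were lower still, and Ptgs2 was last at 0.0044 ± 0.0061 RPKM (SD, n = 5). The ranges of neighbours in this order overlapped from Alox5ap down to Alox12, and did not overlap between Ptgs1 and Alox5ap, Alox12 and Alox15, Alox15 and Alox5, or Alox5 and Ptgs2. In the PDX liver Ptgs1 came first at 9.22 ± 3.03 RPKM and Ptgds had rank 5 at 1.97 ± 0.564 RPKM (SD, n = 5). Ptgds had rank 5 by mean in the Old liver as well. In the Old liver the order by mean was set by O2, with Alox5ap first at 9.90 ± 15.7 RPKM, whereas by median Ptgs1 came first (6.25 RPKM) and Alox5ap next (2.96 RPKM). Of the 2 cyclooxygenases, Ptgs1 encodes the constitutive form and had reads in every mouse, and Ptgs2 encodes the inducible form and had none in 6 of the 15 mice.

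**Figure D1:**
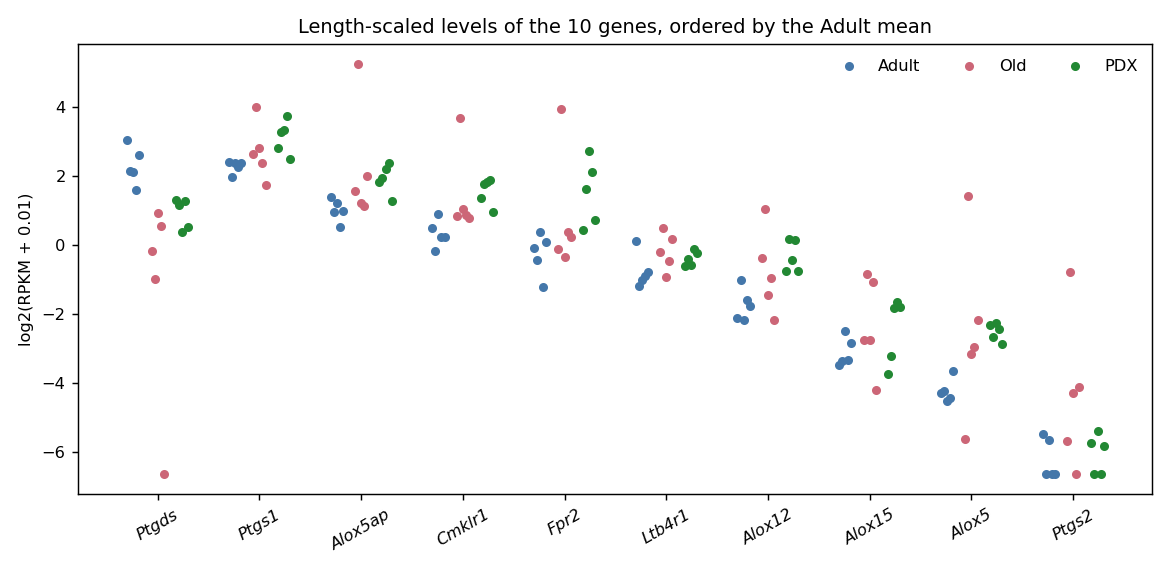
RPKM of the 10 genes in each liver, as log2(RPKM + 0.01), with genes ordered by their mean in the Adult group and 1 point per mouse (blue Adult, red Old, green PDX). Ptgds and Ptgs1 lead in the Adult mice, and Ptgds has rank 5 by mean in the Old mice and in the PDX mice, while Ptgs2 is last in each group.

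Between Old and Adult livers, 2 of the 9 tested genes changed, against 6.78% of all 15808 genes tested (1072 genes): Alox5 rose (4.71% of all genes did) and Ptgds fell (2.07%). The other 7 genes did not pass the test. The log2 fold change was positive for 8 of the 9 genes and for 56.8% of all genes. The median log2 fold change of the 9 genes was 1.36, beside 0.07 over all genes tested, and 0.49 without O2, beside 0.05. In 9 of the 10 genes, counting the untested Ptgs2, the highest level of all 15 mice was that of O2, which was the highest mouse for 20.1% of all genes tested. In 5 of them (Alox5, Alox5ap, Ptgs2, Fpr2 and Cmklr1) O2 was more than 3 times the highest other Old mouse, against 5.85% of all genes. The comparison is therefore described gene by gene with the value of each mouse.

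**Figure D2:**
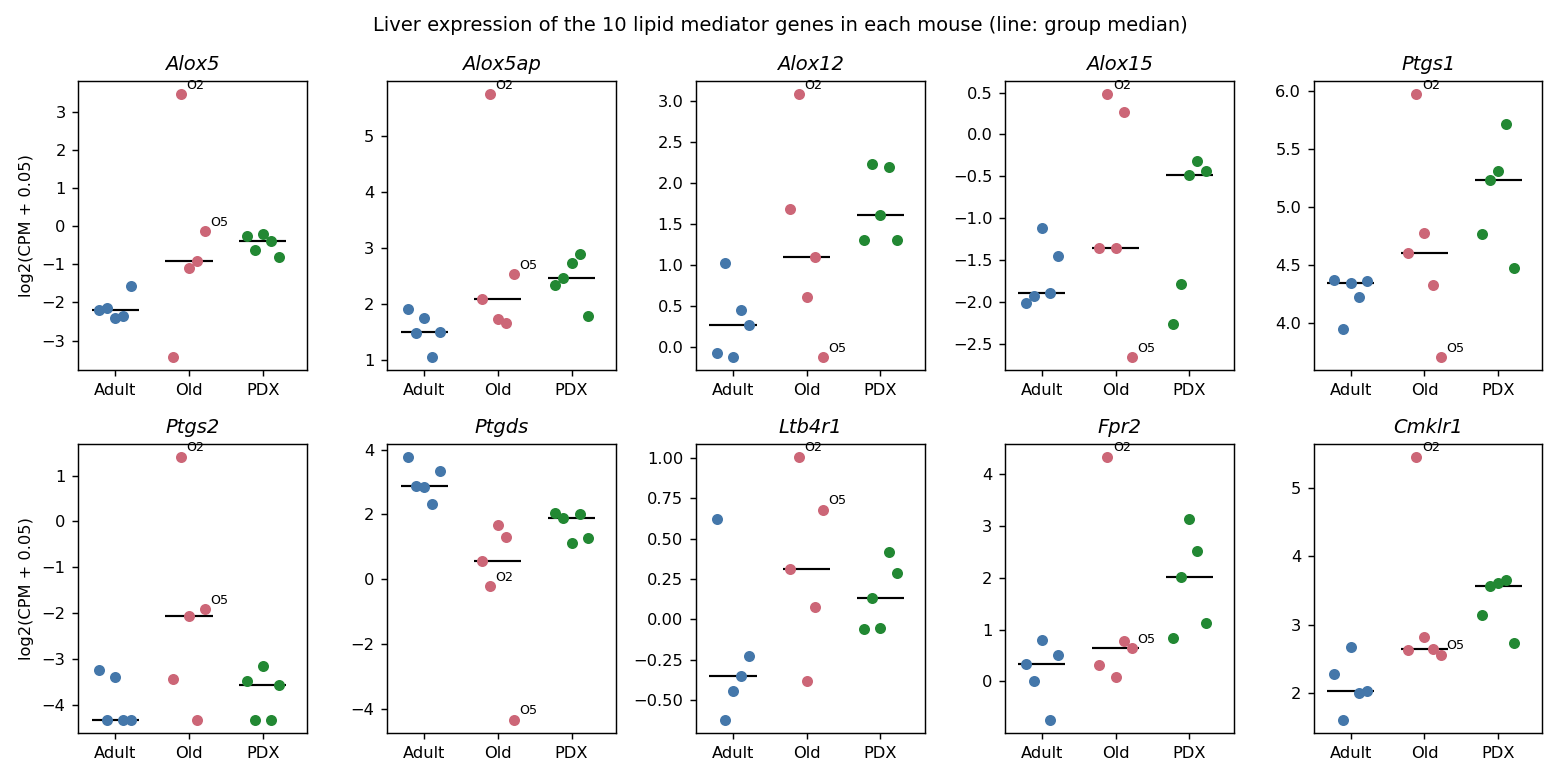
Level of each of the 10 genes in each liver, as log2(CPM + 0.05), with 1 point per mouse, the group median as a line, and the Old mice O2 and O5 labelled. O2 is the highest mouse in 9 panels, and Ptgds is the panel in which all Adult mice lie above all Old and PDX mice.

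Alox5 encodes 5-lipoxygenase, the first enzyme of leukotriene synthesis, which also acts in the making of lipoxins and some resolvins. Alox5 was at 0.169, 0.176, 0.137, 0.146 and 0.287 CPM in the Adult mice A1 to A5, from 3 to 10 counts each. It was at 0.0425, 11.0, 0.415, 0.483 and 0.866 CPM in the Old mice O1 to O5, and at 0.789, 0.602, 0.820, 0.715 and 0.516 CPM in the PDX mice P1 to P5. Of the Old mice, 4 were above every Adult mouse and O1 was below all of them with 1 count, while every PDX mouse was above every Adult mouse. The log2 fold change between Old and Adult was 3.77 (SE 1.02, adjusted p = 0.0404, quasi-likelihood F test of edgeR, Benjamini-Hochberg adjustment). Without O2 it was 1.28 (adjusted p = 0.163, edgeR) and without O2 and O5 it was 0.77 (adjusted p = 0.382, edgeR). The call was also lost on leaving out any 1 Adult mouse or any 1 PDX mouse, with log2 fold changes of 3.69 to 3.99 and adjusted p-values of 0.0507 to 0.0956 in edgeR.

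Alox5ap encodes the membrane protein that presents arachidonic acid to 5-lipoxygenase. Its Adult levels were 3.71, 2.75, 3.28, 2.01 and 2.78 CPM, its Old levels 4.20, 54.0, 3.28, 3.08 and 5.74 CPM and its PDX levels 5.01, 5.46, 6.59, 7.36 and 3.41 CPM. O2 was 9.41 times the highest of the other Old mice, and those other 4 overlapped with the Adult mice. Between Old and Adult the log2 fold change of 2.27 (SE 0.71) did not pass the test (adjusted p = 0.0610, edgeR), and it was 0.49 (adjusted p = 0.265, edgeR) without O2. Leaving out O1, O3, O4 or O5 in place of O2 brought it past the threshold, with adjusted p-values of 0.0303 to 0.0407 in edgeR.

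Alox12, the platelet-type lipoxygenase that makes the 12-hydroperoxy acid of arachidonic acid, was measured at 0.899, 1.97, 0.866, 1.32 and 1.15 CPM in the Adult mice. Its Old levels were 3.14, 8.40, 1.47, 2.08 and 0.866 CPM and its PDX levels 2.41, 4.62, 3.00, 4.50 and 2.41 CPM. The PDX mice all lay above the Adult mice, and the Old mice overlapped with both groups. The log2 fold change between Old and Adult was 1.36 (SE 0.50, adjusted p = 0.0942, edgeR), and 0.61 without O2, and without O5 it passed the threshold (adjusted p = 0.0343, edgeR). Summed CPM of 5 platelet and megakaryocyte markers (Itga2b, Gp1ba, Gp9, Pf4 and Ppbp) was 6.10 to 7.98 in the Adult mice, 4.79 to 132 in the Old mice and 5.84 to 28.8 in the PDX mice, with the Old maximum in O2, and its part in the Alox12 values was not tested.

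Alox15 encodes the leukocyte-type 12/15-lipoxygenase, a route to protectins and to some resolvins. It was near the limit of detection, at 0.197, 0.211, 0.410, 0.220 and 0.316 CPM in the Adult mice. Its Old levels were 0.340, 1.35, 0.339, 1.15 and 0.108 CPM and its PDX levels 0.158, 0.241, 0.662, 0.750 and 0.688 CPM, from 3 to 46 counts over all 15 mice. The groups overlapped in all 3 comparisons. The log2 fold change was 1.29 (SE 0.60, adjusted p = 0.175, edgeR) between Old and Adult, which did not pass the test.

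Ptgs1, which encodes cyclooxygenase-1, had the largest count of the 10 genes in every mouse. It was at 20.7, 15.3, 20.2, 18.6 and 20.5 CPM in the Adult mice, at 24.3, 62.8, 27.4, 20.1 and 13.0 CPM in the Old mice, and at 27.2, 37.7, 39.6, 52.4 and 22.2 CPM in the PDX mice. The Old mice spanned the Adult range, with O5 lowest and O2 highest of all 15, and every PDX mouse lay above every Adult mouse. Between Old and Adult the log2 fold change was 0.63 (SE 0.34, adjusted p = 0.235, edgeR) with all mice and 0.16 without O2. Ptgs2, which encodes cyclooxygenase-2, did not pass the low-count filter. It had 2, 0, 1, 0 and 0 counts in the Adult mice, 1, 89, 5, 0 and 6 in the Old mice and 1, 0, 2, 0 and 1 in the PDX mice. Thus 89 of the 101 Old counts came from O2, and elsewhere Ptgs2 mRNA was at or near the limit of detection. With no filter its adjusted p between Old and Adult was 0.0623 (edgeR).

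Ptgds encodes the lipocalin-type prostaglandin D synthase, which turns prostaglandin H2 into prostaglandin D2 and also carries small lipophilic molecules. It was the one gene of the 10 whose Old and Adult mice did not overlap, and such a separation downward held for 4.48% of all genes tested. The Adult levels were 13.6, 7.29, 7.20, 4.98 and 10.0 CPM, the Old levels 1.44, 0.819, 3.13, 2.41 and 0 CPM and the PDX levels 4.10, 3.65, 2.11, 3.97 and 2.37 CPM. Each Adult mouse was above each Old and each PDX mouse, and the Old and PDX mice overlapped. O5 had 0 counts, which allows a level of up to 0.108 CPM (3 counts, counting error only). The log2 fold change between Old and Adult was -2.47 (SE 0.64, adjusted p = 0.0357, edgeR). It was -2.15 (adjusted p = 0.0078, edgeR) without O5, -2.29 (adjusted p = 0.0607, edgeR) without O2 and -1.87 (adjusted p = 0.0092, edgeR) without both. Leaving out any 1 Adult mouse or P4 also took it above the threshold, with adjusted p-values of 0.0514 to 0.0865 in edgeR and log2 fold changes of -2.62 to -2.23, and a fit of the 10 Old and Adult mice alone gave -2.44 (adjusted p = 0.128, edgeR).

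Of the 3 receptors, Fpr2 and Cmklr1 were far higher in O2 than in any other Old mouse, and none passed the test between Old and Adult. Ltb4r1, the high-affinity receptor of leukotriene B4, was at 1.49, 0.599, 0.684, 0.732 and 0.803 CPM in the Adult mice, 1.19, 1.96, 0.716, 1.00 and 1.55 CPM in the Old mice and 0.907, 1.04, 0.915, 1.29 and 1.17 CPM in the PDX mice. The 3 groups overlapped, with A1 the one Adult mouse above the lowest PDX mouse, and the log2 fold change between Old and Adult was 0.57 (SE 0.31, adjusted p = 0.245, edgeR). Fpr2, a formyl peptide receptor that also binds lipoxin A4, annexin A1 and serum amyloid A, was at 1.21, 0.951, 1.69, 0.549 and 1.38 CPM in the Adult mice and 1.19, 20.1, 1.02, 1.67 and 1.52 CPM in the Old mice. The Old mice other than O2 lay inside the Adult range, and the log2 fold change fell from 2.15 (SE 0.81, adjusted p = 0.102, edgeR) to 0.24 without O2. Its PDX levels, 1.74, 3.97, 8.67, 5.65 and 2.13 CPM, were above those of every Adult mouse, by the least for P1. Cmklr1, the receptor of chemerin and of resolvin E1, was at 4.81, 2.99, 6.34, 3.95 and 4.02 CPM in the Adult mice, 6.12, 43.8, 7.01, 6.20 and 5.84 CPM in the Old mice and 8.76, 11.7, 12.1, 12.5 and 6.57 CPM in the PDX mice. A3 alone kept the Old mice from lying above all Adult mice, and every PDX mouse was above every Adult mouse. The log2 fold change of Cmklr1 between Old and Adult was 1.65 (SE 0.53, adjusted p = 0.0658, edgeR) and 0.52 (adjusted p = 0.188, edgeR) without O2, and it passed the threshold on leaving out O1, O3, O4 or O5, with adjusted p-values of 0.0362 to 0.0447 in edgeR.

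Between PDX and Old livers, none of the 9 tested genes passed the test, as none of the 15808 genes did (0.0%), and none had an unadjusted p under 0.05, against 5.28% of all genes. The Wald test of DESeq2 also called 0 of the 7 genes for which it gave an adjusted p, which left out Alox5, Alox5ap and Cmklr1. No gene of the 10 had PDX and Old mice that did not overlap (0.342% of all genes tested). The log2 fold changes ran from -1.90 (SE 0.91) for Alox5 to 1.06 (SE 0.63) for Ptgds, with adjusted p-values of 0.793 to 0.974 in edgeR. These fold changes had O2 in the Old group. Without O2, those of Alox5, Alox5ap, Fpr2 and Cmklr1 went from -1.90, -1.34, -0.21 and -0.42 to 0.59, 0.45, 1.71 and 0.71, with the sign turned in each, and 4 of the 9 genes (Alox12, Ptgs1, Fpr2 and Cmklr1) had an unadjusted p under 0.05, against 11.2% of all genes, but the adjusted p was 0.297 or more for each gene in edgeR. For Fpr2 without O2, its highest mouse (20.1 CPM), the other 4 Old mice reached 1.67 CPM and the lowest PDX mouse was at 1.74 CPM. This gap came only from leaving O2 out, and the share of all genes so separated was not computed. For Cmklr1 and Ptgs1 the PDX and Old mice still overlapped without O2. Ptgds had a higher mean in PDX (3.24 ± 0.930 CPM) than in Old (1.56 ± 1.24 CPM, SD, n = 5), with a log2 fold change of 1.06 and an adjusted p of 0.793 in edgeR, which did not pass the test.

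**Figure D3:**
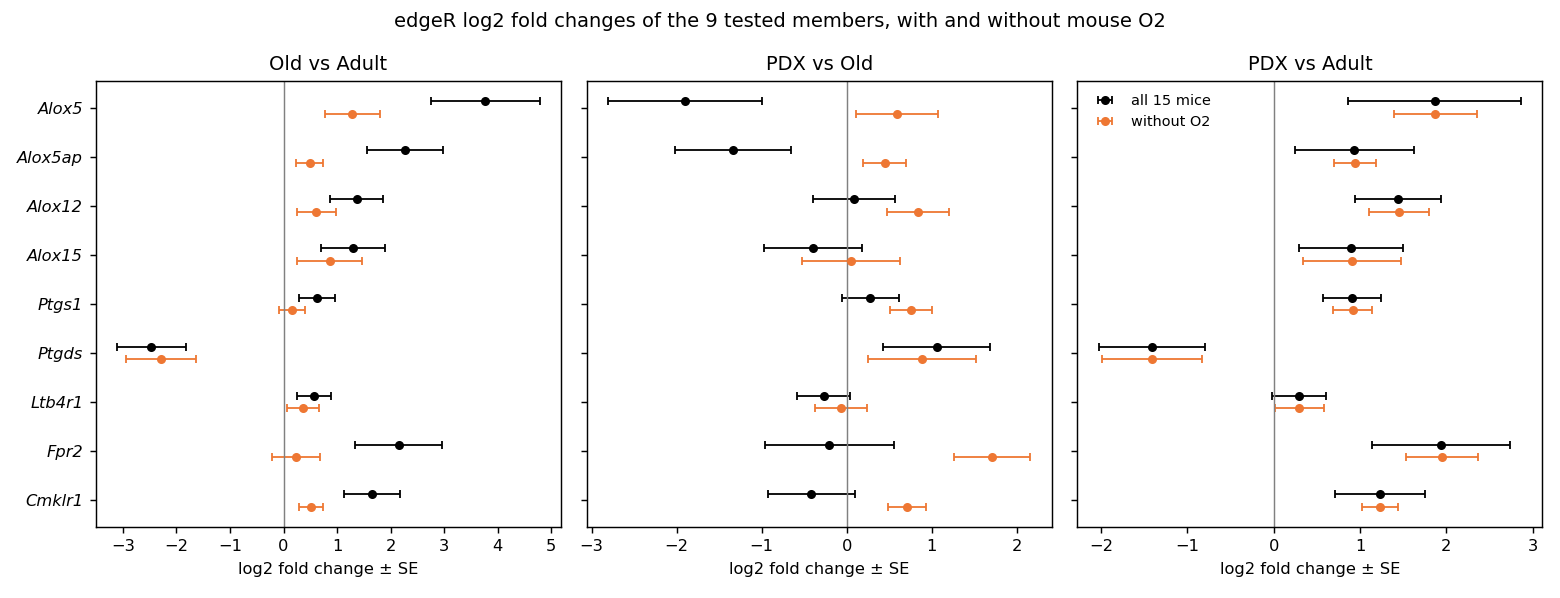
Log2 fold change with its SE from edgeR for the 9 tested genes in the 3 comparisons, with all 15 mice (black) and without O2 (orange). The black and orange points lie apart for Alox5, Alox5ap, Fpr2 and Cmklr1, and less so for Alox12, in the comparisons that hold the Old mice, and together between PDX and Adult, where the error bars are shorter without O2.

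Between PDX and Adult livers, which differ in both age and treatment, 5 of the 10 genes had every PDX mouse above every Adult mouse: Alox5, Alox12, Ptgs1, Fpr2 and Cmklr1. Such a separation upward held for 10.5% of all genes tested. Ptgds had every PDX mouse below every Adult mouse, which held for 9.34%. In the fit of all 15 mice, however, 0 of the 9 genes passed the test (2.66% of all genes did), with adjusted p-values of 0.124 to 0.636 in edgeR and with 5 genes at an unadjusted p under 0.05 (20.6% of all genes). The Wald test of DESeq2 called 1 gene, Alox12 (adjusted p = 0.0448, DESeq2), and again gave no adjusted p for Alox5, Alox5ap and Cmklr1. In that fit the Old mice, O2 among them, enter the estimate of each gene's spread.

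In a fit of the 10 PDX and Adult mice alone, 7 of the 8 genes tested changed, against 29.6% of the genes tested there. Alox5 (log2 fold change 1.87, SE 0.28), Fpr2 (1.96, SE 0.44), Alox12 (1.45, SE 0.28), Cmklr1 (1.24, SE 0.22), Alox5ap (0.95, SE 0.22) and Ptgs1 (0.92, SE 0.20) rose (16.1% of all genes did), with adjusted p-values of 0.0008 to 0.0074 in edgeR. Ptgds fell by 1.41 on the log2 scale (SE 0.28, adjusted p = 0.0030, edgeR), as 13.5% of all genes fell. Ltb4r1 (0.30, SE 0.27) did not pass the test (adjusted p = 0.440, edgeR), and Alox15 was under the filter there. Without O2 and O5 in the fit of all groups, 7 of 9 genes were called against 24.6% of all genes, and without O2 alone 6 of 9 against 11.1%. The sizes hardly moved between these fits, since the values of the 10 mice are the same in each, and the standard error of Cmklr1, for example, went from 0.52 to 0.22. The Old versus Adult and PDX versus Adult comparisons share the Adult mice. Side by side without O2, the log2 fold changes were 0.24 and 1.95 for Fpr2, 0.16 and 0.91 for Ptgs1, 0.61 and 1.45 for Alox12, 0.49 and 0.94 for Alox5ap, 1.28 and 1.87 for Alox5, 0.86 and 0.91 for Alox15, 0.37 and 0.30 for Ltb4r1 and -2.29 and -1.41 for Ptgds. For Cmklr1 the folds were 1.43 and 2.35. None of these genes passed the direct test between PDX and Old.

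Markers of several blood and immune cell types were also higher in O2 and in the PDX mice than in the Adult mice. For monocytes and recruited macrophages, neutrophils and myeloid progenitors, the sum was higher in every Old mouse than in every Adult mouse. The summed CPM of 6 Kupffer cell markers (Clec4f, Vsig4, Timd4, Cd5l, Marco and Adgre1, all of them detected) was 588, 382, 560, 440 and 531 in the Adult mice and 790, 1207, 1414, 1326 and 661 in the PDX mice, which did not overlap. In the Old mice it was 583, 2633, 806, 470 and 247, with O2 highest and O5 lowest as for Ptgs1. The sum of 8 markers of monocytes and recruited macrophages was 62.9 to 114 CPM in the Adult mice, 141 to 1036 CPM in the Old mice and 179 to 574 CPM in the PDX mice, and that of 9 neutrophil markers was 6.06 to 11.3, 13.1 to 237 and 23.2 to 72.9 CPM. The sum of 5 B cell markers was 5.35 to 9.16 CPM in the Adult mice, 9.03 to 102 CPM in the Old mice and 15.8 to 56.8 CPM in the PDX mice, and that of 4 markers of myeloid progenitors 0.169 to 0.866, 6.02 to 65.1 and 17.3 to 142 CPM. None of the 6 Kupffer cell markers passed the test in any of the 3 comparisons in the fit of all 15 mice, and of the 8 monocyte markers 4 were higher between Old and Adult and 1 between PDX and Adult. Between Old and Adult, 6 of 8 tested neutrophil markers, 3 of 5 B cell markers and 3 of 3 myeloid progenitor markers were higher, and the same 3 numbers were 0, 0 and 3 between PDX and Adult. The part of these cell types in the levels of the 10 genes was not tested. In whole liver, more cells of a type and more RNA per cell cannot be told apart.

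The levels can also be set against the Kupffer cell sum. That sum was itself higher in every PDX mouse than in every Adult mouse, so that dividing by it lowers any gene in PDX relative to Adult: on this scale 49.6% of all genes tested lay lower in PDX without overlap and 0.999% higher. Per 1000 CPM of Kupffer cell markers, Ptgs1 was at 35.2 to 42.3 in the Adult mice and 28.0 to 39.5 in the PDX mice, Cmklr1 at 7.57 to 11.3 and 8.59 to 11.1, and Fpr2 at 1.25 to 3.01 and 2.20 to 6.14. Ptgds, lower in PDX before the division as well, was at 11.3 to 23.2 in the Adult mice, 1.49 to 5.19 in the PDX mice and 0 to 5.14 in the Old mice. In O2 the ratio was 4.18 for Alox5, 20.5 for Alox5ap, 7.64 for Fpr2 and 16.6 for Cmklr1, each above all Adult and PDX mice, and 23.9 for Ptgs1, below all of them. O5, whose Kupffer cell sum was the lowest, had ratios of 3.50 for Alox5, 23.2 for Alox5ap and 23.6 for Cmklr1, also above all Adult and PDX mice. The sum of the 8 monocyte and recruited macrophage markers, also higher in every PDX mouse than in every Adult mouse, gave other ratios. Dividing by this sum likewise lowers any gene in PDX relative to Adult, and the share of all genes lower without overlap was not computed. On this scale 4 of the genes lay lower in PDX without overlap (Alox5ap, Ptgs1, Ptgds and Ltb4r1) and 0 higher. Per 1000 CPM of these markers, Ptgs1 was at 180 to 268 in the Adult mice and 69.0 to 127 in the PDX mice. Cmklr1 was at 35.3 to 81.9 and 21.1 to 36.7, and Fpr2 at 7.91 to 21.8 and 5.46 to 15.1, which overlapped. Whether the amount of macrophage RNA accounts for the levels of these genes was not tested.

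**Figure D4:**
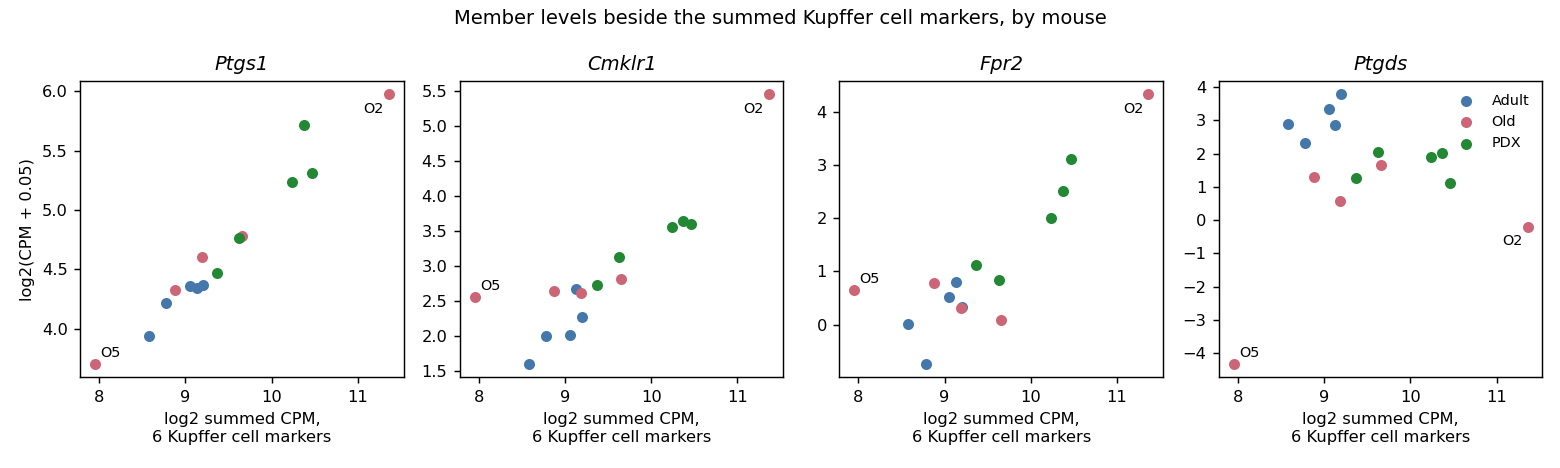
Level of Ptgs1, Cmklr1, Fpr2 and Ptgds in each liver, as log2(CPM + 0.05), against the log2 of the summed CPM of 6 Kupffer cell markers, with 1 point per mouse (blue Adult, red Old, green PDX). Ptgs1 lies close to 1 line from O5 to O2 through the Adult and PDX mice, whereas in the Ptgds panel the Adult mice lie above the others at all marker sums.

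For each tested gene the 3 genes with the most similar log2 CPM over the 15 mice, by Pearson's r, are given as a description. For Cmklr1 they were Laptm5, C1qb and Apobr, each with r = 0.98, and for Ptgs1 they were Sdc3, Evl and Pilra (r of 0.97 to 0.98). For Fpr2 they were Rgs10, Fpr1 and Dmpk (r of 0.96 to 0.98), for Alox5ap Rap1b, Necap2 and Psap (r of 0.97 to 0.98), and for Alox5 Pygb, Gramd1b and Abcc1 (r of 0.94 to 0.96). Mlxipl, Tex2 and C2cd2 were most like Ptgds, each with r = 0.96. Alox12 was nearest to Pla2g15, Grk3 and Fuca2 (r of 0.92 to 0.93), Ltb4r1 to Cc2d1a, Zfp251 and Cdc25a (r of 0.86) and Alox15 to Gzmb, Sirt6 and Ppp1r14a (r of 0.81 to 0.83). All 15 points share the group differences and, for each gene but Ptgds, the high value of O2. Without O2, 9 of these 27 genes were still among the 3 most alike, and none were for Alox5ap (then Actr3, Clec4a2 and Golm1, r of 0.92 to 0.94), Alox12 (Cldn14, C4a and Ehd4, r of 0.91 to 0.92), Ltb4r1 (Armc5, Rpl13a and P4ha2, r of 0.81 to 0.86) and Alox15 (Plxna3, Hsp25-ps1 and Bicdl1, r of 0.78 to 0.80).

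The wider pathway was followed in 67 other genes in 9 roles, of which 54 were tested. Of these, 10 changed between Old and Adult (8 rose and 2 fell) and 7 between PDX and Adult (6 rose and 1 fell), against 6.78% and 2.66% of all genes. Between PDX and Old, 0 were called by edgeR, with 3 at an unadjusted p under 0.05. The median log2 fold change of the 54 genes was 0.38, -0.04 and 0.25 for Old versus Adult, PDX versus Old and PDX versus Adult, beside 0.07, -0.07 and -0.01 over all genes. In the fit of the 10 PDX and Adult mice alone, 28 of 49 pathway genes were called (19 higher and 9 lower), against the 29.6% given above. The calls described next are those of the fit of all 15 mice.

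Among the 8 terminal prostanoid synthases, which act on the product of the cyclooxygenases, Ptges and Ptgis rose in both comparisons with Adult and Cbr1 fell between Old and Adult. Ptges, a prostaglandin E synthase, was at 0.253, 0.423, 0.365, 0.549 and 0.287 CPM in the Adult mice, 2.08, 3.63, 1.47, 3.75 and 1.37 CPM in the Old mice and 2.52, 1.93, 2.87, 1.43 and 1.93 CPM in the PDX mice. Both old groups were above every Adult mouse, without O2 standing out, with log2 fold changes of 2.71 (SE 0.36, adjusted p = 0.0027, edgeR) in Old and 2.51 (SE 0.36, adjusted p = 0.0018, edgeR) in PDX. Ptgis, prostacyclin synthase, was at 2.16, 1.37, 2.14, 1.98 and 1.64 CPM in the Adult mice, 5.18, 6.26, 3.88, 3.86 and 7.58 CPM in the Old mice and 7.93, 10.0, 6.37, 5.72 and 3.89 CPM in the PDX mice. Its groups were likewise separate from the Adult mice, with log2 fold changes of 1.53 (SE 0.27, adjusted p = 0.0094, edgeR) and 1.86 (SE 0.27, adjusted p = 0.0019, edgeR). The calls of both genes held on leaving out each of the 15 mice in turn. Ptgds, in the same step of the pathway, moved in the opposite direction. Hpgds, another prostaglandin D synthase among the 8, did not pass in the fit of all 15 mice. In the fit of the 10 PDX and Adult mice, 6 of the 8 passed (4 higher and 2 lower), against 29.6% of all genes tested there. Hpgds, named here after its values were seen, was among those that rose (log2 fold change 1.36, adjusted p = 0.0020, edgeR). Cbr1, a carbonyl reductase that can convert prostaglandin E2, fell by 0.62 on the log2 scale (SE 0.16, adjusted p = 0.0357, edgeR) in Old, and this was -0.54 (adjusted p = 0.0766, edgeR) without O2 and lost on leaving out any 1 Adult mouse or P4 as well.

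Of the receptors outside the 10 genes, Gpr18, a receptor of resolvin D2, and Ffar4, a receptor of omega-3 fatty acids, rose between Old and Adult among 8 tested leukotriene and resolvin receptors. Gpr18 was at 0.141 to 0.502 CPM in the Adult mice, 0.334 to 4.95 CPM in the Old mice and 0.688 to 1.39 CPM in the PDX mice, and Ffar4 at 0.0705 to 0.373, 0.260 to 3.35 and 0.172 to 0.963 CPM. The Old ranges overlapped with the Adult ranges for both genes. Both calls were lost on leaving out any 1 Adult mouse. Without O2 the call of Gpr18 was lost (log2 fold change 1.68, adjusted p = 0.0847, edgeR), and without O2 and O5 Gpr18 passed (1.90, adjusted p = 0.0468, edgeR). Ffar4 passed without O2 (3.00, adjusted p = 0.0464, edgeR). Its call was lost without O2 and O5 (2.04, adjusted p = 0.105, edgeR), as it was without O1, O5, P1, P2, P3 or P4 alone. Fpr1, the neighbour of Fpr2 in function as a formyl peptide receptor and the receptor of this role with the highest level per length, had means of 3.59, 9.78 and 9.39 CPM in the Adult, Old and PDX groups and did not pass the test. O2 was at 31.7 CPM of Fpr1 and the other Old mice at 4.04 to 4.45 CPM, and the log2 fold change between Old and Adult was 0.27 without O2. In the fit of the 10 PDX and Adult mice Fpr1 rose (log2 fold change 1.40, adjusted p = 0.0022, edgeR). None of 5 tested prostanoid receptors passed in the fit of all mice. In the fit of the 10 PDX and Adult mice 2 of 4 did, against 29.6% of all genes tested there. They are named here after their values were seen: Ptger4, a prostaglandin E2 receptor (log2 fold change 2.00, adjusted p = 0.0022, edgeR), and Ptgir, the prostacyclin receptor (1.68, adjusted p = 0.0038, edgeR). Both also passed between PDX and Adult without O2 in the fit of all groups (adjusted p = 0.0127 and 0.0075, edgeR). Tbxa2r, the thromboxane receptor and the prostanoid receptor with the highest level per length, had means of 2.32, 1.77 and 2.03 CPM.

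The 6 genes for protein ligands of these receptors held the largest log2 fold changes of the pathway. Rarres2 encodes chemerin, the ligand of Cmklr1, and fell between Old and Adult while the level of its receptor did not pass the test. It was at 555, 578, 584, 519 and 566 CPM in the Adult mice, 277, 245, 427, 356 and 274 CPM in the Old mice and 287, 318, 476, 377 and 446 CPM in the PDX mice. All Adult mice were above all others, and the log2 fold change was -0.83 (SE 0.18, adjusted p = 0.0230, edgeR) in Old and -0.56 (SE 0.18, adjusted p = 0.104, edgeR) in PDX. The call in Old held without O2 and without O2 and O5, and was lost without A1, A2, A3 or A5 (adjusted p of up to 0.0587, edgeR).

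Of 5 genes for protein ligands of Fpr2, Anxa1 and Saa3 rose in both comparisons with Adult. Anxa1, which encodes annexin A1, had means of 4.98, 13.2 and 11.5 CPM in the Adult, Old and PDX groups and a log2 fold change of 1.40 (SE 0.27, adjusted p = 0.0153, edgeR) in Old, and in PDX it was 2.30-fold above Adult (adjusted p = 0.0294, edgeR). Saa3, a serum amyloid A gene, had means of 3.56, 27.6 and 22.7 CPM, and its log2 fold changes were 2.96 (adjusted p = 0.0052, edgeR) in Old and 2.68 (adjusted p = 0.0062, edgeR) in PDX. Every Old and PDX mouse was above every Adult mouse for both genes. The calls of Saa3 held on leaving out each of the 15 mice in turn, that of Anxa1 in Old was lost without A5, and that of Anxa1 in PDX without any 1 Adult mouse, P1, P2, P3 or P4 (adjusted p of up to 0.0825, edgeR). Saa1 and Saa2, the acute-phase serum amyloid A genes of hepatocytes, passed the test between PDX and Adult, with log2 fold changes of 5.51 (SE 1.27, adjusted p = 0.0314, edgeR) and 6.65 (SE 1.49, adjusted p = 0.0285, edgeR). Their Adult, Old and PDX means were 42.5, 489 and 1939 CPM for Saa1 and 18.3, 317 and 1828 CPM for Saa2. Old versus Adult, at 3.52 (adjusted p = 0.0711, edgeR) and 4.12 (adjusted p = 0.0666, edgeR), did not pass. Nor did PDX versus Old, at 1.99 and 2.53 (adjusted p = 0.793 for each, edgeR). Saa1 was at 17.8 to 76.4 CPM in the Adult mice and at 158 to 715 CPM in 4 PDX mice, with 8325 CPM in P2, and without P2 the log2 fold change was 3.01 (adjusted p = 0.0938, edgeR) for Saa1 and 3.51 (adjusted p = 0.0710, edgeR) for Saa2. Saa1 and Saa2 are near-identical copies, and pairs that align to both are not counted as unique, which makes the value of each uncertain. Camp, the cathelicidin gene of neutrophils and a ligand of Fpr2, had means of 0.0400, 2.86 and 1.15 CPM and passed between Old and Adult (log2 fold change 6.20, SE 1.45, adjusted p = 0.0269, edgeR), but without O2 did not (3.68, adjusted p = 0.0541, edgeR), nor without any 1 Adult mouse. The call of Saa1 was also lost without any 1 Adult mouse or P1, and that of Saa2 without any 1 Adult mouse.

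Among the genes of transport and breakdown, Ephx2, the soluble epoxide hydrolase that inactivates epoxy fatty acids, fell between PDX and Adult. It was at 536, 634, 668, 594 and 638 CPM in the Adult mice, 341, 133, 386, 313 and 499 CPM in the Old mice and 283, 211, 306, 287 and 379 CPM in the PDX mice. All Adult mice were above all others, and the log2 fold change was -1.07 (SE 0.26, adjusted p = 0.0432, edgeR) in PDX and -0.88 (SE 0.26, adjusted p = 0.0557, edgeR) in Old. The call in PDX was lost on leaving out any of 11 single mice, with log2 fold changes of -1.18 to -0.97 over all 15 such fits and adjusted p-values of up to 0.118 in edgeR. Without O2, Ephx2 passed both in Old (-0.67, adjusted p = 0.0494, edgeR) and in PDX (-1.06, adjusted p = 0.0023, edgeR). Without O2 and O5 it also passed in Old (-0.81, adjusted p = 0.0105, edgeR). In fits of the 10 mice compared it was -0.85 (adjusted p = 0.155, edgeR) in Old and -1.06 (adjusted p = 0.0004, edgeR) in PDX. Dpep1, a dipeptidase that can turn leukotriene D4 into leukotriene E4, rose between Old and Adult (1.15 and 3.28 CPM, log2 fold change 1.52, SE 0.38, adjusted p = 0.0319, edgeR), and this was 1.36 (adjusted p = 0.0590, edgeR) without O2 and lost on leaving out any 1 Adult mouse. None of the 9 tested genes of fatty acid release and supply and none of the 4 nuclear receptors of fatty acids passed in any comparison in the fit of all 15 mice. In the fit of the 10 PDX and Adult mice, 4 of those 9 (Pla2g4a and Pla2g12b higher, Pla2g12a and Elovl2 lower) and 1 of those 4 (Ppard, higher) did, with adjusted p-values of 0.0039 to 0.0376 in edgeR. In that fit 29.6% of all genes tested passed, so that counts this small do not set these roles apart. These genes too are named after their values were seen. Fads2, the desaturase with the highest level per length in that role, had means of 754, 709 and 833 CPM in the Adult, Old and PDX groups, and Rxra, the nuclear receptor with the highest, had 460, 425 and 449 CPM. Mgst3, the highest gene of leukotriene synthesis, had means of 28.9, 17.4 and 20.1 CPM and did not pass. The 4 other lipoxygenases were all under the filter, and Aloxe3, the highest, had means of 0.0577, 1.28 and 0.0980 CPM, where O2 was at 5.88 CPM and the other Old mice at 0 to 0.302 CPM.

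**Figure D5:**
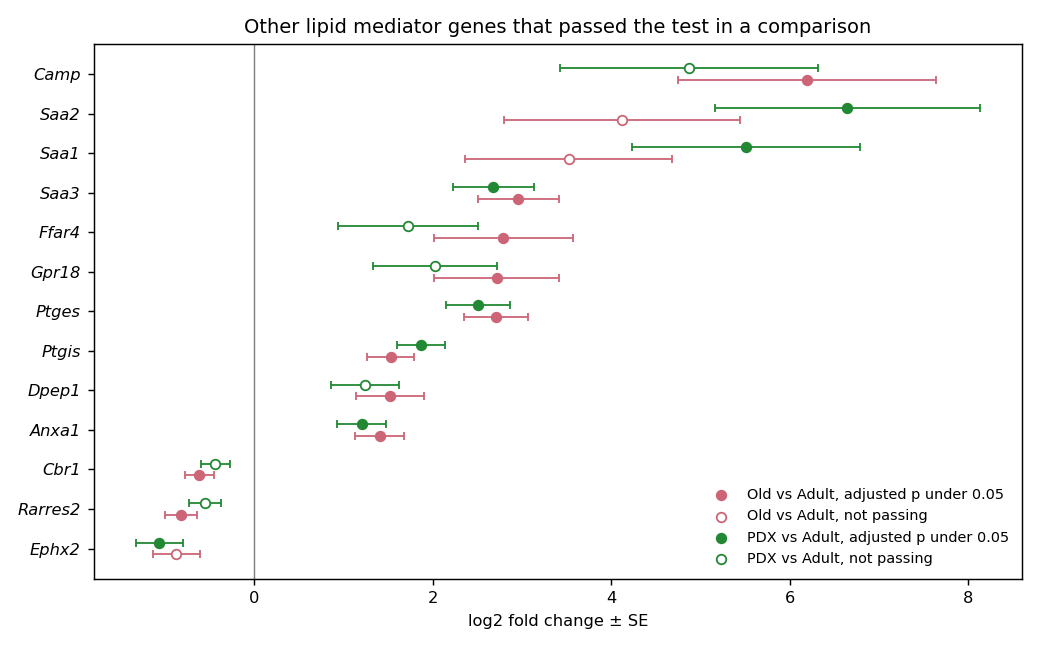
Log2 fold change with its SE from edgeR for the 13 other pathway genes that passed the test in a comparison, for Old versus Adult (red) and PDX versus Adult (green), filled where the adjusted p was under 0.05. Ptges, Ptgis, Anxa1 and Saa3 are filled in both comparisons, to the right of 0, and the 3 genes to the left are Cbr1, Rarres2 and Ephx2.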

How the data were processed

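Liver mRNA from 15 mice was sequenced with 1 strand-specific, poly(A)-selected library per mouse. The authors aligned the read pairs with STAR (version 2.6.0c) to the mouse build mm10 and assigned unique proper pairs to Ensembl genes with featureCounts (Subread 1.6.2), and the counts per gene were deposited without normalization. The authors also deposited log2-scale values, from DESeq2 1.23.10 by variance stabilization, which served in an alternative fit only. No column lacked a sample (0 columns). Symbols, coordinates and exon lengths come from GENCODE M21 on GRCm38, and 55190 of 55450 gene IDs had a symbol. All 10 members, 67 of 68 other pathway genes (Dpep2 has 2 IDs and was not used) and all 70 markers matched.

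Counts were tested with edgeR (version 4.0.16, limma 3.58.1, R 4.3.3): filterByExpr by group (minimum count 10, minimum total 15), TMM scaling, and the quasi-likelihood F test of 1 fit over all 15 mice, two-sided, with Benjamini-Hochberg adjustment over all genes tested and a threshold of 0.05. The study used the Wald test of DESeq2, which was kept here as an alternative (version 1.42.0). Depth was 22.4 M to 36.1 M counted pairs per mouse, and a count of 0 allows up to 3 counts. Log2 CPM used a prior count of 2. The steps were checked on simulated counts. Other alternatives were size factors of DESeq2, other low-count filters, fits of the 10 mice compared, the log2-scale values with limma, thinned counts, a replicate block, and leaving out each mouse or both O2 and O5.

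The text names the 10 members, each pathway gene with an adjusted p under 0.05 in any comparison, the pathway gene of each role with the highest mean RPKM, and the 3 genes most like each tested member among those whose log2 CPM averaged 0 or more. Members, lists and motifs were chosen with earlier results of these data known. The mice were killed in batches, which the labels do not give for each mouse, so no within-batch value was computed. Plots were drawn and tables made in Python 3.11.15 with pandas 2.3.3.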

Additional observations from a re-analysis of the deposited data

Results flagged for a closer look

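In 27 groups of 5 mice (9 genes in 3 groups), the mouse at 1 end stood apart from the other 4 by Dixon's ratio (over 0.71) in 7 cases. The ratio was taken on CPM, the genes share the same mice, and no rate over all genes was computed. The number of cases can therefore not be set against a rate by chance. Of the 7 cases, 5 were O2 in the Old group. Its Alox5 level was 11.0 CPM, against 0.0425 to 0.866 CPM in the other Old mice, and its Alox5ap level was 54.0 CPM against 3.08 to 5.74 CPM. Fpr2 was at 20.1 CPM in O2, against 1.02 to 1.67 CPM, Cmklr1 at 43.8 CPM against 5.84 to 7.01 CPM, and Ptgs1 at 62.8 CPM against 13.0 to 27.4 CPM. The other cases were in the Adult group. Alox5 was at 0.287 CPM in A5, from 10 counts, against 0.137 to 0.176 CPM in the other Adult mice. Ltb4r1 was at 1.49 CPM in A1 against 0.599 to 0.803 CPM.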

How the results depend on the processing

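The number of genes called moved with the Old mice and with the estimate of spread. Leaving out 1 mouse at a time gave 156 to 2178 genes, 0 to 5 of the 9 members and 3 to 20 pathway genes between Old and Adult (1072, 2 and 10 with all mice), and 166 to 1766, 0 to 6 and 3 to 17 between PDX and Adult (420, 0 and 7). Between PDX and Old these counts were 0 throughout, except 1 gene by DESeq2. Between Old and Adult, DESeq2 called 2642 genes, 4 members (Alox12, Ptgds, Ptgs2 and Fpr2) and 22 pathway genes, no low-count filter 665 genes, a minimum of 1 CPM in 5 mice 1 member, the 10 mice compared 105 genes, 0 members and 3 pathway genes, log2-scale values with limma 651 genes and 1 member, and leaving out O2 and O5 gave 1 member. Between PDX and Adult, DESeq2 called 1401 genes and 1 member, the 10 mice compared 4529 genes, 7 members and 28 pathway genes, and leaving out O2 and O5 gave 4004, 7 and 29. DESeq2 gave no adjusted p for Alox5, Alox5ap and Cmklr1 in any comparison, so its member counts leave these genes out. Same-numbered mice are different animals whose deviations did not go together (mean r of -0.17, 0.03 and 0.09 for Old versus Adult, PDX versus Adult and PDX versus Old), and the replicate block called 237 genes, 0 members and 6 pathway genes between Old and Adult. Among the members, directions turned only between PDX and Old, where no member was called. Leaving out 1 mouse gave log2 fold changes of -2.19 to 0.59 for Alox5, -1.59 to 0.45 for Alox5ap and -0.61 to 0.71 for Cmklr1, each turned without O2, of -0.60 to 1.71 for Fpr2 and -0.66 to 0.049 for Alox15, likewise, and of -0.16 to 0.84 for Alox12, turned without O3, O4, O5, P2 or P4. Without O2 and O5 they were 1.11, 0.67, 1.79, 0.69 and 0.14 for Alox5, Alox5ap, Fpr2, Cmklr1 and Ltb4r1, with limma 0.51 for Fpr2 and 0.087 for Cmklr1, and with the replicate block 0.59 for Fpr2. The cause of these changes was not tested beyond the mice left out. Alox5, Alox15 and Ptgs2 had under 50 counts in every mouse other than O2, which limits the precision of their fold changes.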

Other observations

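The 8 genes of transport and breakdown had a median log2 fold change of -0.60 between Old and Adult (-0.53 without O2) and -0.48 between PDX and Adult, and the 8 terminal prostanoid synthases one of 0.73 (0.06 without O2) and 0.56, beside 0.07 (0.05 without O2) and -0.01 over all genes. The Kupffer cell markers ranged from 247 to 2633 CPM between mice, and per 1000 CPM of these 6 markers Ptgs1 was at 23.9 to 52.5 in the Old mice, 35.2 to 42.3 in the Adult mice and 28.0 to 39.5 in the PDX mice. The Old mouse O5, with the lowest Kupffer cell sum (247 CPM), had 0 counts of Ptgds and 3 of Alox15, whereas its Alox5 level (0.866 CPM) was the highest of the Old mice after O2.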
